A study of Mus musculus with 7 samples.

Results

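Vasoactive peptide receptors are cell-surface receptors for vasopressin, oxytocin, endothelin, angiotensin II and bradykinin. The 10 genes considered were Avpr1a, Avpr1b, Avpr2, Oxtr, Ednra, Ednrb, Agtr1a, Agtr2, Bdkrb1 and Bdkrb2, chosen by gene symbol from probe sets that carry a single symbol. Of these 10 genes, 9 had such a probe set, 1 each, and all 9 were among the 16801 genes tested of 19937 measured, each above the 25th percentile on all 7 arrays; Ednra was not analysed here. The set was assembled around Avpr1a because of its low values in tenascin-C knockout cells, so its knockout values are given below as a description with no test.

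The data come from 7 Affymetrix arrays that read whole transcripts, hybridised with RNA of mouse embryonic fibroblasts. The cells had become immortal spontaneously and were cultured untreated for 2 days in medium with serum. Wild-type cells gave 3 arrays, each from its own clone of a wild-type mouse. Knockout cells from mice lacking tenascin-C (Tnc) gave 2 arrays, 1 per clone, and wild-type cells carrying a stably transfected hairpin that targets Tnc (the knockdown) gave 2 arrays, 1 per clone. Each group is thus a model of 2 or 3 clones, no group with a control hairpin was analysed here, and p-values cover only the spread among clones, which no label ties to separate animals. Tnc encodes a matrix glycoprotein, and the design asks which transcripts differ when fibroblasts lack it or have it depleted.

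These receptors belong to the G protein-coupled family. Avpr1a, Oxtr, Ednra, Agtr1a and the bradykinin receptors act mainly through Gq and phospholipase C, which releases calcium from internal stores and, in smooth muscle, causes contraction; Avpr2 acts through Gs and cyclic AMP. Fibroblasts can carry several of them, and in wound and scar tissue endothelin and angiotensin II are known to stimulate fibroblast growth, contraction and matrix production.

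The sequences just upstream of Avpr1a and Agtr2 are shown because these genes spanned the widest ranges over the arrays. Both are the 250 bases before the annotated start on the plus strand, from RefSeq with build GRCm38.p6: chr10:122448249-122448498 for Avpr1a and chrX:21484374-21484623 for Agtr2. Capitals mark matches to the motifs searched.
Avpr1a: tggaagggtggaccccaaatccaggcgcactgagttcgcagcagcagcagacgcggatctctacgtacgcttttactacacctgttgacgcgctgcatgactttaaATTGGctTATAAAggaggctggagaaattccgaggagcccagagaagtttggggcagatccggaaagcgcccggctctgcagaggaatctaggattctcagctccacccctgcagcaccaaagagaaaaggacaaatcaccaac
Agtr2: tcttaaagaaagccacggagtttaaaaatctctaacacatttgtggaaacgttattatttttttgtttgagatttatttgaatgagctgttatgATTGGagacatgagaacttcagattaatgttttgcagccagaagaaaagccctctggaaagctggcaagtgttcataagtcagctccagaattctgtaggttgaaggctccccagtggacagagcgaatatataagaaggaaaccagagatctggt
The search covered both strands for the TATA box TATAAA, the CCAAT box, the Sp-factor box GGGCGG, the cyclic AMP response element TGACGTCA and the activator protein element TGACTCA, none of which contains another. Avpr1a held 1 TATAAA, at position -137 from the annotated start. Anywhere in the window, 12.4% of 32851 RefSeq upstream windows of the same length also hold 1 or more. It also held 1 CCAAT on the opposite strand, as do 33.8% of windows. Whether either match acts in these cells was not tested. Agtr2 held 1 CCAAT, also on the opposite strand, and no exact TATAAA. Only exact matches were counted, so a variant such as the tatataa close to the Agtr2 start is not marked. Neither window held the other motifs, which 32.7% (the Sp-factor box), 1.55% (the cyclic AMP element) and 4.46% (the activator protein element) of windows hold. Of the 10 genes, 7 had an upstream sequence in the table; besides these, the TATA box was found 1 time in Avpr2, the CCAAT box 2 times in Ednrb and the Sp-factor box 1 time in Oxtr.

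Across the series, Pearson's r between 2 arrays ran from 0.979 to 0.990 over 34760 probe sets. All 9 fibroblast markers examined, Col1a1, Pdgfra and Thy1 among them, lay above the array median on every array. Of 7 endothelial, 6 macrophage and blood and 6 epithelial markers, 5 of each lay below the median on every array. So did 4 of 5 adrenal and liver, 3 of 6 neural and 3 of 5 melanocyte and Schwann markers measured. Each of these lists also held 1 marker above the median on every array. These were Vwf (endothelial), Cd68 (macrophage and blood), Krt8 (epithelial), Apoa1 (adrenal and liver), Tubb3 (neural) and Sox10 (melanocyte and Schwann). The summed log2 signal of the fibroblast markers ran from 99.7 to 103.3 in wild type, 102.8 to 104.7 in knockout and 104.4 to 104.9 in knockdown. Limma called 0 of these 9 in each comparison; an unadjusted p under 0.05 was reached in knockout by 6 higher and 1 lower (12.8% of all genes), and in knockdown by 2 higher and 0 lower (14.1%). The part of this shift in the receptor values below was not tested. Tnc itself had a log2 signal of 10.89, 11.42 and 11.38 in wild type, 8.05 and 8.51 in knockout, and 7.34 and 6.52 in knockdown. The log2 difference from wild type was -2.95 ± 0.295 (SE) in knockout and -4.30 ± 0.295 in knockdown (limma adjusted p = 0.042 and 0.0339). Whether its probe set overlaps the knockout deletion is unknown here, so the knockout signal does not check the deletion itself.

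Values are log2 signals, so a difference of 1 is a doubling. Differences are taken only between arrays, for the same gene or the same list of summed genes, since signals of different probe sets are not on a common scale. A place above or below an array median is thus only a rough guide to signal level. A gene is said to have risen or fallen only with an adjusted p under 0.05 from limma. Limma fits a linear model to each gene over all 7 arrays and draws on all genes tested to steady the estimate of spread. Its p-values were adjusted over all genes tested by the Benjamini-Hochberg method.

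Avpr1a encodes the vasopressin receptor that constricts blood vessels and stimulates glycogen breakdown in liver. Its log2 signal was 8.96, 8.37 and 8.49 in wild-type clones 1 to 3, 5.13 and 5.75 in the knockout clones, and 9.87 and 9.89 in the knockdown clones. The groups did not overlap: both knockout arrays lay below every wild-type array, and both knockdown arrays above. The order of the means was knockdown (9.88 ± 0.0124, SD, n = 2), wild type (8.61 ± 0.314, SD, n = 3) and knockout (5.44 ± 0.445, SD, n = 2). The knockout mean differed from wild type by -3.17 ± 0.241 (SE) on the log2 scale, 8.98-fold lower, given as a description because these values chose the gene. The knockout arrays stood close to their array medians of 5.41 and 5.38, knockout array 1 below and knockout array 2 above, so background may limit that fold.

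**Figure D1:**
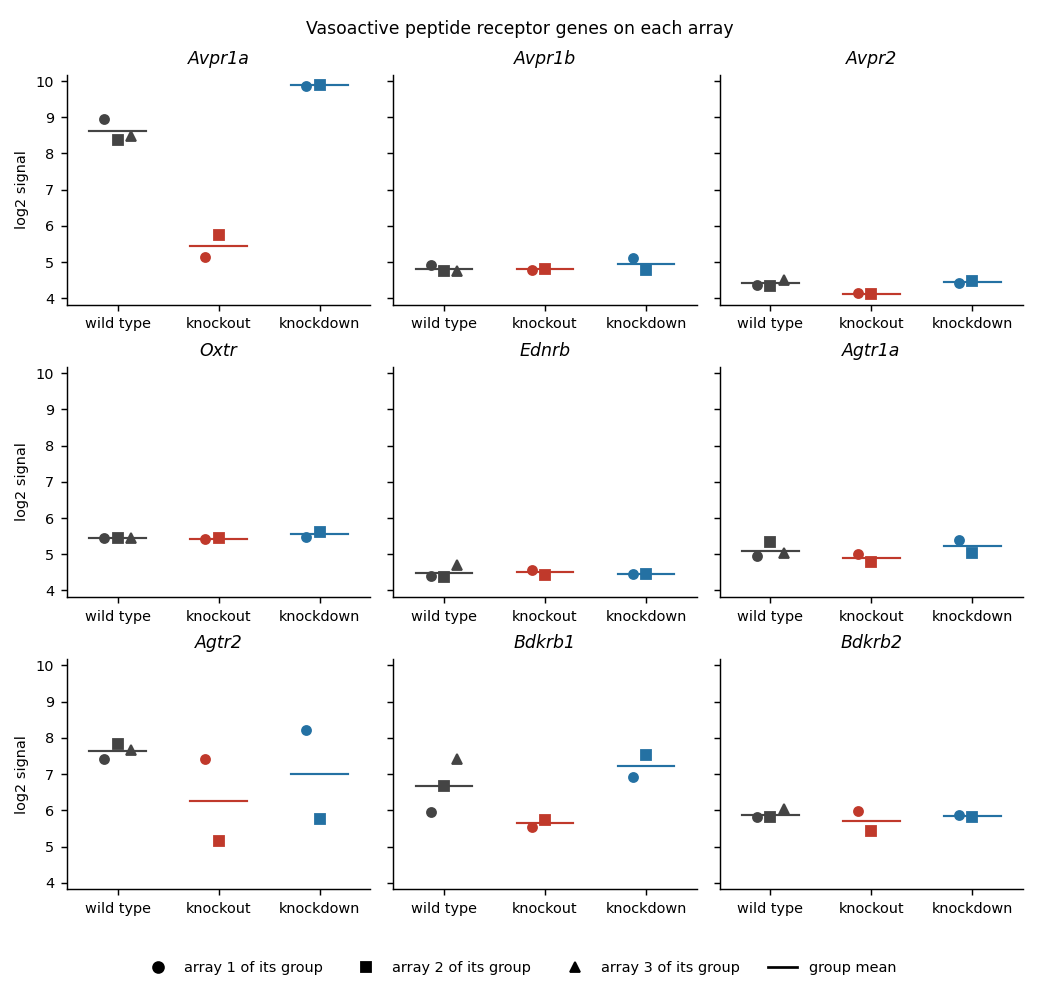
Log2 signal (vertical axis) of the 9 measured receptor genes in wild-type, knockout and knockdown fibroblasts; each point is 1 array, its shape gives the array number within its group, and the line is the group mean. Avpr1a is the gene whose 3 groups stand apart, from 5.13 to 9.89, and Agtr2 is low on array 2 of both deficient groups (5.14 and 5.75).

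In knockdown cells, Avpr1a stood 1.27 ± 0.241 (SE) above wild type, which is 2.42-fold (95% interval 0.68 to 1.86 on the log2 scale). This did not pass over all genes (limma adjusted p = 0.162, and 0.119 to 0.353 over 17 alternatives), although both knockdown arrays were higher than all 3 wild-type arrays. The knockdown comparison uses the same wild-type arrays as the knockout one. Knockout and knockdown differed by -4.44 ± 0.264 (SE), a 21.7-fold lower value in knockout, again a description. Of all genes tested, 320, or 1.90%, had knockout arrays below and knockdown arrays above every wild-type array, and 225 (1.34%) had the reverse order. Because low knockout values chose Avpr1a, the knockout side of its order was fixed beforehand, and 1.90% does not measure how rare it is. Knockdown arrays lay above every wild-type array in 17.5% of all genes.

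Contractile markers, which a receptor of smooth muscle could accompany, are given beside Avpr1a as a description. Over 8 smooth muscle and pericyte markers, Acta2 and Tagln among them, the summed log2 signal ran from 61.3 to 64.9 in wild type, from 63.4 to 69.2 in knockout and from 58.3 to 61.1 in knockdown. The wild-type and knockout sums overlapped, and the knockdown sums were the lowest, where Avpr1a was highest. The part of these markers in the Avpr1a values was not tested. Limma called 0 of the 8 in each comparison. An unadjusted p under 0.05 was reached by 1 marker in knockout, which was lower as Avpr1a was, and by 0 in knockdown (12.8% and 14.1% of all genes). Between those groups it was reached by 2, both higher in knockout (17.9% of all genes). In a bulk sample, fewer cells carrying a transcript and less of it per cell cannot be told apart.

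Genes beside Avpr1a on chromosome 10 did not share its size of difference. Of the 5 nearest tested genes on each side, limma called 0 in each comparison, and 1 (knockout), 3 (knockdown) and 2 (between these groups) of the 10 had an unadjusted p under 0.05, against 12.8%, 14.1% and 17.9% of all genes. In knockout their log2 differences ran from -0.68 (the deubiquitinase gene Usp15) to 0.09 (the transport gene Xpot), and in knockdown from -0.60 (Usp15 again) to 0.42 (Tafa2). In knockout 8 of the 10 were lower and 1 higher, with a median of -0.22 beside -0.0280 over all genes. In knockdown, where Avpr1a was higher, 7 were lower and 3 higher, with a median of -0.29 beside 0.0284. Tafa2, the fourth tested gene on one side, had the order of Avpr1a at a smaller size: 5.45, 5.45 and 5.58 in wild type, 5.27 and 5.35 in knockout, and 5.74 and 6.09 in knockdown. Its groups did not overlap, and knockout minus knockdown was -0.60 ± 0.129 (SE, limma adjusted p = 0.117). This neighbourhood was examined after the Avpr1a values were seen.

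The genes with the most similar values to Avpr1a over the 7 arrays were found among 930 tested genes with an SD of at least 0.5. They were Hoxa2 (r = 0.975), a homeobox gene of hindbrain and neural crest patterning, Mr1 (r = 0.958), which encodes an MHC-like antigen-presenting molecule, Mab21l1 (r = 0.956), needed for eye development, Cd1d1 (r = 0.950), which presents lipid antigens, and Emilin2 (r = 0.949), a matrix glycoprotein gene. Hoxa2 stood at 6.08, 6.31 and 6.24 in wild type, 5.21 and 5.42 in knockout, and 6.68 on both knockdown arrays. Mr1 stood at 7.57, 7.74 and 7.35, then 5.58 and 4.81, then 8.35 and 8.45. Both repeat the order knockdown, wild type, knockout without overlap, as do Mab21l1 and Emilin2; Cd1d1 has a knockdown array within the wild-type range. These correlations are a description over 7 arrays of 3 groups, and the genes were picked for them.

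**Figure D2:**
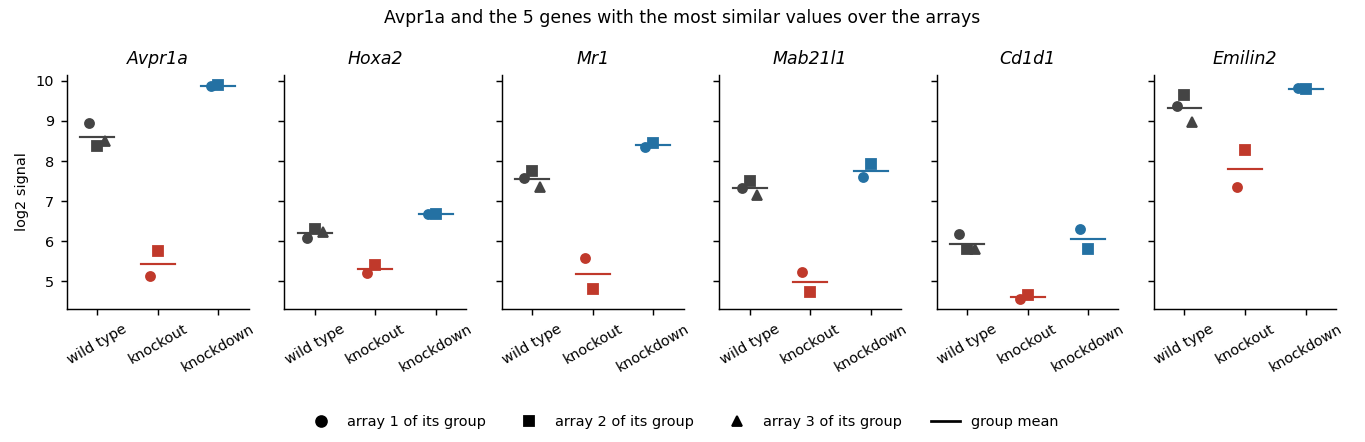
Log2 signal (vertical axis) of Avpr1a and of the 5 genes whose values correlated best with it over the 7 arrays, by group; points are arrays and lines group means. In each panel the knockout arrays are the lowest; for Hoxa2 they stand at 5.21 and 5.42 against 6.68 on both knockdown arrays.

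The remaining receptors of the vasopressin and oxytocin family varied little. Avpr1b encodes the receptor through which vasopressin stimulates pituitary corticotropin release. It stood at 4.92, 4.74 and 4.76 in wild type, 4.78 and 4.82 in knockout, and 5.10 and 4.78 in knockdown. The groups overlapped, and all 7 values were below the array medians. The interval of the signal difference was -0.15 to 0.43 in knockdown (limma adjusted p = 0.641) and -0.29 to 0.28 in knockout (adjusted p = 0.992); at this low signal background can hide a change of the transcript.

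Avpr2, the X-linked receptor that drives water reabsorption in the kidney, also stayed below the array medians. Its values were 4.38, 4.34 and 4.51 in wild type, 4.15 and 4.11 in knockout, and 4.43 and 4.47 in knockdown. Both knockout arrays lay below all the others, by a small step: -0.28 ± 0.0789 (SE) against wild type and -0.32 ± 0.0864 against knockdown. Neither passed over all genes (limma adjusted p = 0.234 and 0.163). The knockdown arrays lay within the wild-type range (0.04, adjusted p = 0.867).

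Oxtr, the oxytocin receptor gene of uterine contraction and milk ejection, read 5.44, 5.45 and 5.44 in wild type, 5.42 and 5.44 in knockout, and 5.49 and 5.62 in knockdown. Its knockdown arrays were the highest, but the difference of 0.11 ± 0.0712 (SE) did not pass (limma adjusted p = 0.542). The knockout difference had an interval of -0.19 to 0.16 (adjusted p = 0.962).

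Of the endothelin receptors, Ednrb is known for the neural crest cells that form melanocytes and gut neurons, and for its role in endothelium. It stood at 4.40, 4.38 and 4.70 in wild type, 4.57 and 4.44 in knockout, and 4.46 on both knockdown arrays. All 7 values were below the array medians and the groups overlapped, with intervals of -0.28 to 0.30 for knockout and -0.32 to 0.25 for knockdown (limma adjusted p = 0.981 and 0.934). Its identical knockdown values do not measure precision: 46.2% of probe sets in the deposited table held the same value on 2 or more arrays, and 5 of the 9 receptor genes did.

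Among the angiotensin receptors, Agtr1a encodes the main receptor through which angiotensin II raises blood pressure in rodents. Its values were 4.95, 5.33 and 5.04 in wild type, 5.01 and 4.78 in knockout, and 5.39 and 5.04 in knockdown. All were below the array medians, and the knockout and knockdown arrays each overlapped wild type (-0.21, limma adjusted p = 0.607, and 0.11, adjusted p = 0.799). The knockout arrays lay below both knockdown arrays, by 0.32 on the log2 scale, with an adjusted p of 0.387. Rodents also carry Agtr1b, a close copy of this gene that was not measured separately here, so the signal may include it.

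Agtr2, the X-linked angiotensin receptor gene known for its abundance in fetal mesenchyme, differed between clones rather than between groups. It stood at 7.41, 7.84 and 7.66 in wild type, 7.41 and 5.14 on knockout arrays 1 and 2, and 8.23 and 5.75 on knockdown arrays 1 and 2. Array 2 of each deficient group was low, while array 1 lay at or above the lowest wild-type value. The knockout mean was 6.27 ± 1.61 (SD, n = 2) and the knockdown mean 6.99 ± 1.75 (SD, n = 2), against 7.63 ± 0.216 (SD, n = 3) in wild type. No difference passed: it was -1.36 ± 0.89 (SE) in knockout and -0.64 ± 0.89 in knockdown (limma adjusted p = 0.554 and 0.792). Without both arrays numbered 2 of the deficient groups (a setting added once these values had been seen) the values were -0.23 and 0.59, so 1 clone per group sets the size in knockout and the sign in knockdown.

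The same clones differed in sex-linked genes. Xist, the non-coding RNA of X inactivation, stood at 8.80 on knockout array 2 and at 3.51 to 3.77 elsewhere. The Y-linked translation factor gene Eif2s3y had 3.77 in knockout clone 2 and 5.46 in knockdown clone 2, and 7.51 to 8.78 in the remaining 5, and the Y-linked Uty at 3.14 and 4.98 against 6.75 to 8.02. Agtr2 was 2.27 lower on array 2 than on array 1 in knockout and 2.47 lower in knockdown. Of 16801 genes tested, 3 were lower by at least 2 in both pairs: Agtr2, Eif2s3y and Uty. The gaps of Agtr2 itself exceed this cutoff, so its place among the 3 is no separate result. Counting Agtr2, 7 genes had gaps at least as large as its own in both pairs, in either direction. The Y-linked Kdm5d, at 6.32 and 4.14 in knockout and 6.80 and 4.86 in knockdown, did not meet the cutoff in both pairs. Whether the sex-linked difference plays a part in Agtr2 was not tested.

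**Figure D3:**
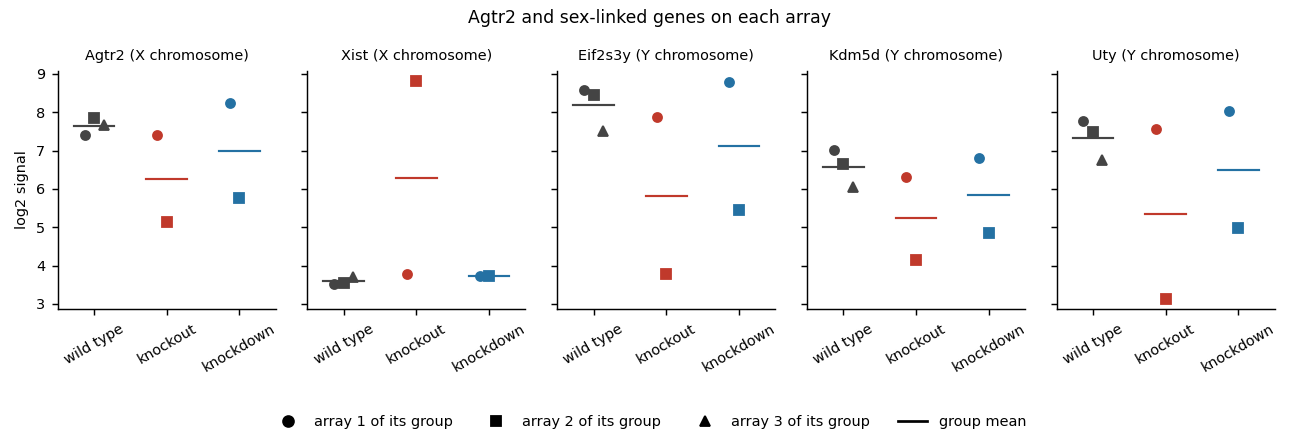
Log2 signal (vertical axis) of Agtr2, of the X-linked Xist and of the Y-linked Eif2s3y, Kdm5d and Uty by group; points are arrays, with the array number as shape, and lines are group means. Array 2 of the knockout and knockdown groups is low for Agtr2 (5.14 and 5.75) and for the Y-linked genes, and Xist is high on knockout array 2 alone, at 8.80.

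The X chromosome as a whole is given as a description. A median over many genes cannot show whether a single gene such as Agtr2 is affected. Over 518 tested X-linked genes the median of array 1 minus array 2 was 0.000 in knockout and 0.150 in knockdown, against 0.019 and 0.000 over other genes. Of the 5 nearest tested genes on each side of Agtr2, limma called 0 in each comparison, with 2, 1 and 3 of the 10 at an unadjusted p under 0.05 in knockout, in knockdown and between them (12.8%, 14.1% and 17.9% of all genes). The receptor gene Il13ra1 among them was low on knockout array 1 instead (6.12, against 8.83 on knockout array 2).

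Of the bradykinin receptors, Bdkrb1 is induced by injury and inflammation. It stood at 5.95, 6.66 and 7.43 in wild type, 5.55 and 5.72 in knockout, and 6.91 and 7.54 in knockdown. Both knockout arrays lay below every other array, whereas the knockdown arrays overlapped the broad wild-type range. The knockout difference was -1.04 ± 0.428 (SE; limma adjusted p = 0.390) and the knockdown difference 0.55 ± 0.428 (adjusted p = 0.617). Knockout and knockdown differed directly by -1.59 ± 0.469 (SE), 3.01-fold lower in knockout, with an interval of -2.73 to -0.44 and an adjusted p of 0.180. The order of its means, knockdown, wild type, knockout, is that of Avpr1a, with only the knockout arrays standing clear. This order is not particular to Bdkrb1. Avpr2 (4.45, 4.41 and 4.13), Oxtr (5.55, 5.44 and 5.43) and Agtr1a (5.22, 5.10 and 4.89) had it at smaller sizes. Avpr1b had it barely, with wild-type and knockout means both at 4.80 when rounded. With quantile normalization the knockout difference turned positive for Oxtr (0.04) and Avpr1b (0.05), so their place in this order depends on the scaling. The medians over all genes tested lay the same way, at -0.0280 in knockout and 0.0284 in knockdown. The share of all genes with this order of means was not counted, so it is not a trait of these receptors.

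Bdkrb2, the constitutive bradykinin receptor gene next to Bdkrb1 on chromosome 12, lay in a narrower band. Its values were 5.81, 5.81 and 6.04 in wild type, 5.98 and 5.42 in knockout, and 5.88 and 5.81 in knockdown. Knockout array 2 was the lowest and the groups overlapped (-0.18 in knockout, limma adjusted p = 0.681, and -0.04 in knockdown, adjusted p = 0.946). Without knockout array 2 the knockout difference was 0.10.

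Counted together, 0 of the 8 receptor genes other than Avpr1a passed limma in knockout against wild type, where 0.167% of all genes did, and 1 (Avpr2) had an unadjusted p under 0.05, against 12.8%. Of these 8, 2 (Avpr2 and Bdkrb1) had knockout arrays below every wild-type array and 0 above, against 15.3% and 13.2% of all genes. In knockdown, 0 of 9 passed, against 0.0179%, and 1 (Avpr1a) had an unadjusted p under 0.05, against 14.1%. There 2 of 9 (Avpr1a and Oxtr) lay above every wild-type array, against 17.5%. Between knockout and knockdown, 0 of 8 passed, against 0.375%, and 2 (Avpr2 and Bdkrb1) had an unadjusted p under 0.05, against 17.9%; 4 of 8 had knockout arrays below both knockdown arrays, against 27.2%. With so few genes, none of these counts sets the receptors apart from the rest of the genome. Median log2 differences were -0.20 in knockout without Avpr1a, 0.11 in knockdown with it and -0.23 between deficient groups without it, beside -0.0280, 0.0284 and -0.0503 over all genes tested.

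**Figure D4:**
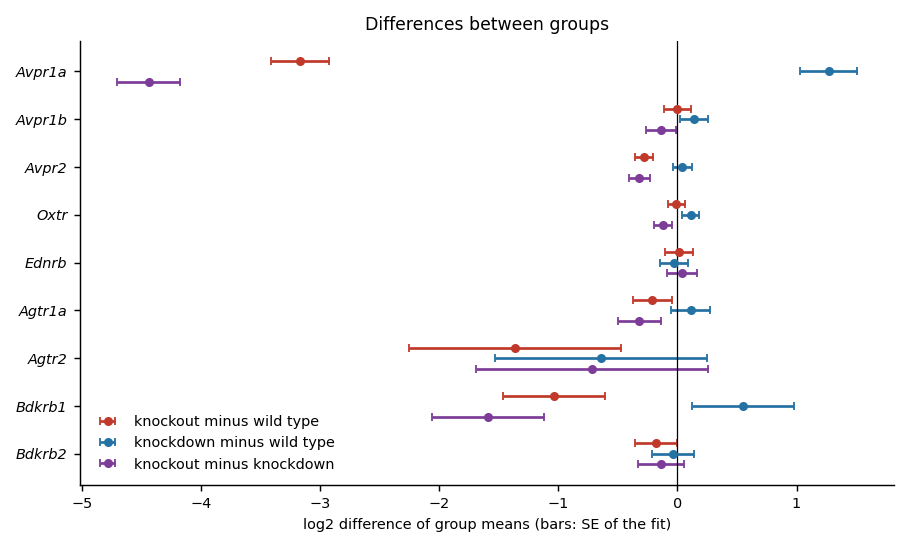
Differences between group means (horizontal axis, log2) for the 9 receptor genes, with bars of 1 SE from the linear model. Avpr1a lies at -3.17 in knockout and 1.27 in knockdown, Bdkrb1 at -1.04 and 0.55 with wider bars, and the remaining genes other than Agtr2 lie within 0.4 of 0.

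The ligands of these receptors were examined as a list of 8 genes, of which 7 were tested and limma called 0 in each comparison, with an unadjusted p under 0.05 for 2 higher in knockout, 1 higher in knockdown and 0 lower in either (12.8% and 14.1% of all genes), and 2 higher and 1 lower between those groups (17.9%). Agt, which encodes the precursor of angiotensin II, stood at 5.66, 6.00 and 6.44 in wild type, 8.64 and 7.65 in knockout, and 6.44 and 6.36 in knockdown. Both knockout arrays lay above all others, and the difference of 2.11 ± 0.337 (SE) had a limma adjusted p of 0.0927 (0.0583 to 0.274 over 17 alternatives). Avp, the vasopressin gene, differed by 0.27 ± 0.098 in knockdown (adjusted p = 0.311). List medians were -0.03 in knockout and 0.10 in knockdown, close to those over all genes.

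The enzymes that make or break down the peptides gave 0 limma calls of 17 tested in each comparison. An unadjusted p under 0.05 was reached by 0 in knockout and 0 in knockdown, and by 1 between those groups, against 12.8%, 14.1% and 17.9% of all genes. Prep, a peptidase of small peptides, stood at -0.23 in knockout (limma adjusted p = 0.395), and Cpd, a carboxypeptidase, at -0.40 in knockdown (adjusted p = 0.368). Ece2, of the endothelin-converting enzyme family, differed by 0.69 between knockout and knockdown (adjusted p = 0.236), but by -0.60 with the probe set of lowest mean signal, so its probe sets disagree. The list medians were -0.02 in knockout and -0.01 in knockdown.

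Signalling genes downstream of the receptors, from G protein subunits to phospholipase C, calcium release and protein kinase C, gave 0 limma calls of 26 tested in each comparison. In knockout, an unadjusted p under 0.05 was reached by 6 that were higher and 0 that were lower, with a median of 0.09, and in knockdown by 0 higher and 2 lower, with a median of -0.03, against 12.8% and 14.1% of all genes. Between knockout and knockdown it was reached by 7 higher and 1 lower (17.9% of all genes), with a median of 0.13 beside -0.0503 over all genes. Plcb1, a phospholipase C that Gq activates, stood at 4.38, 4.37 and 4.19 in wild type, 5.74 and 6.58 in knockout, and 4.51 and 5.65 in knockdown. Both deficient groups lay above wild type, by 1.84 ± 0.378 (SE, limma adjusted p = 0.140) and 0.77 ± 0.378 (adjusted p = 0.435). Every wild-type array and knockdown array 1 lay below their array medians for Plcb1, so background may limit these differences. Trpc1, a cation channel gene, differed by 1.70 ± 0.34 between knockout and knockdown (adjusted p = 0.105). Itpr3, a calcium release channel gene, stood at -0.37 in knockdown (adjusted p = 0.283).

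Kinases, arrestins and RGS proteins, which end receptor signals, gave 0 limma calls of 16 tested in each comparison. An unadjusted p under 0.05 was reached by 2 higher and 1 lower in knockout, by 1 lower in knockdown, and by 3 higher and 0 lower between those groups, against 12.8%, 14.1% and 17.9% of all genes. Rgs2, which shortens Gq signals, stood at 7.32, 6.99 and 6.80 in wild type, 6.38 and 6.91 in knockout, and 5.36 and 5.05 in knockdown. The knockdown arrays, where Avpr1a was highest, were the lowest for Rgs2, at -1.83 ± 0.222 (SE) from wild type (limma adjusted p = 0.100). Grk5, a receptor kinase gene, differed by 1.59 ± 0.451 in knockout (adjusted p = 0.240). List medians were 0.05 in knockout and -0.09 in knockdown.

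Other receptors for vasoactive mediators, such as those for prostanoids, catecholamines and lysophospholipids, gave 0 limma calls of 39 tested in each comparison. An unadjusted p under 0.05 was reached by 1 higher and 4 lower in knockout, 4 higher and 3 lower in knockdown, and 2 higher and 10 lower between knockout and knockdown, against 12.8%, 14.1% and 17.9% of all genes. Lpar1, a lysophosphatidic acid receptor gene, stood at 8.97, 8.87 and 8.81 in wild type, 7.96 and 8.57 in knockout, and 9.19 and 9.27 in knockdown. Ptgfr, the prostaglandin F receptor gene, stood at 5.85, 5.91 and 6.33, then 4.72 and 5.85, then 8.19 and 6.77. Both had the order of Avpr1a, knockdown above and knockout below wild type. For Ptgfr, knockout array 2 and wild-type array 1 both read 5.85 when rounded, so its knockout arrays barely stood clear of wild type. The gap between knockout and knockdown was -0.97 ± 0.196 (SE) for Lpar1 and -2.20 ± 0.546 for Ptgfr (limma adjusted p = 0.105 and 0.143). Lpar1 lies on chromosome 4, as Tnc does. Whether this plays a part in the Lpar1 knockout values was not tested.

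Immediate early and calcium-responsive genes that Gq-coupled receptors can induce gave the only calls among the lists. Of 25 tested, 0 passed in knockout or knockdown against wild type, and 2 were higher in knockout than in knockdown, Dusp1 and Dusp6, phosphatase genes that switch off MAP kinases. Dusp1 stood at 9.22, 9.20 and 9.22 in wild type, 10.21 and 10.43 in knockout, and 9.31 and 8.98 in knockdown. Its knockout arrays were the highest, and the gap to knockdown was 1.18 ± 0.134 (SE, limma adjusted p = 0.0464). Dusp6 stood at 9.26, 8.98 and 9.10, then 9.34 and 9.42, then 8.17 and 8.40, with a gap of 1.10 ± 0.125 (adjusted p = 0.0464), mostly from low knockdown values. Against wild type, Dusp1 stood at 1.11 ± 0.122 in knockout, just short of the threshold (adjusted p = 0.0502), and Dusp6 at -0.83 ± 0.114 in knockdown (adjusted p = 0.110). Both calls between the deficient groups ended in 13 of 17 alternatives, with adjusted p from 0.0288 to 0.312 for Dusp1 and from 0.0326 to 0.307 for Dusp6. Leaving out any single array ended both, at gaps of 1.01 to 1.34 for Dusp1 and 0.98 to 1.21 for Dusp6. An unadjusted limma p under 0.05 was reached in knockout by 5 higher genes and 3 lower ones, and in knockdown by 0 higher and 8 lower, against 12.8% and 14.1% of all genes, with medians of 0.05 and -0.15. Between knockout and knockdown 9 were higher and 1 lower (17.9% of all genes), with a median of 0.22.

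**Figure D5:**
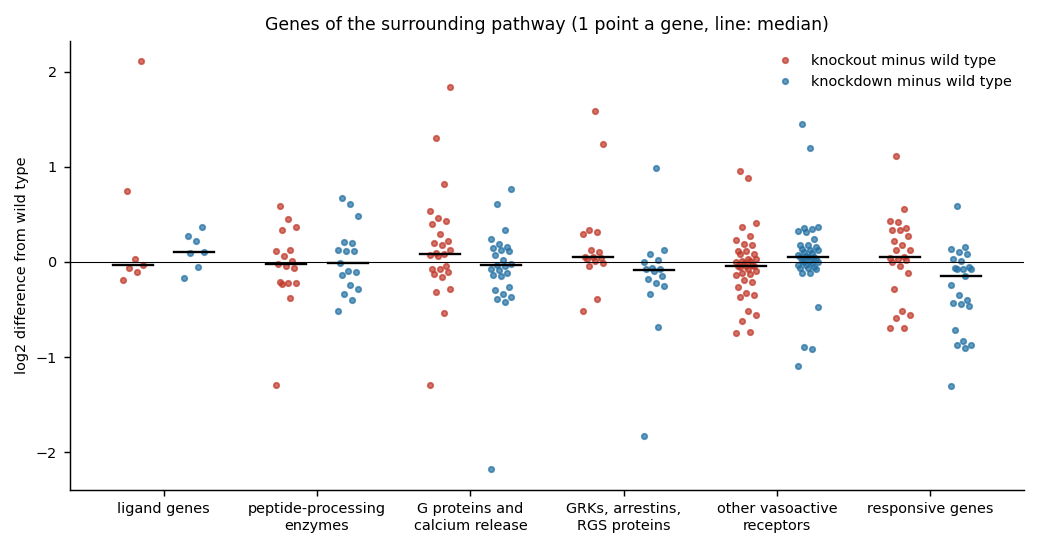
Log2 difference from wild type (vertical axis) of each tested gene in the 6 lists around the receptors, in knockout and knockdown, with the list median as a line. Medians lie between -0.15 and 0.10; Agt, among the ligand genes, is the highest point at 2.11 in knockout.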

How the data were processed

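The measurements are array signals of 3 wild-type, 2 knockout and 2 knockdown fibroblast clones. The deposited table holds log2 values, 1 column per array; that they are log2 was inferred from their range, and the submitters' processing notes name R 2.8.0 and the affy package. How the authors summarised, background-corrected and normalized them is not given in the sources used here. Array medians ran from 5.38 to 5.49. For arrays, their number limits the precision.

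Of 34760 probe sets, 21640 had 1 gene symbol, 1321 several and 11799 none listed; 21553 gene identifiers matched the RefSeq table of GRCm38.p6, used for names and gene order, since the array's build is not stated. Of 19937 genes, 954 had several probe sets, and the one with the highest mean was used. A gene was tested if at least 2 arrays put it over their own 25th percentile. The test was a two-sided limma 3.58.1 fit (R 4.3.3; lmFit, eBayes) of one mean per group, with 4 residual and 2.06 prior degrees of freedom. The script was tested on simulated data.

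The members and lists were chosen with earlier results of these data known. Genes named are the members, Tnc, per list and comparison up to 4 called genes or the 1 of smallest p, and the 5 most correlated with Avpr1a; chromosome neighbours and sex-linked genes were added after values were seen. Alternatives were other filters, scalings, variance settings and probe sets, the compared groups alone, a replicate block and each array left out.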

Additional observations from a re-analysis of the deposited data

Results flagged for a closer look

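Of all genes tested, 320 (1.90%) had knockout arrays below and knockdown arrays above every wild-type array, and 225 (1.34%) the reverse. Limma called 63 (0.375%) between knockout and knockdown. Several of the genes named above had knockout and knockdown arrays on opposite sides of every wild-type array, or differed between knockout and knockdown by that test. Avpr1a is one, at -4.44 for knockout minus knockdown, given with no p because its knockout values chose it. Hoxa2 (-1.36), Mr1 (-3.21), Mab21l1 (-2.77) and Emilin2 (-2.0) are others, given with no p because they were chosen for resembling Avpr1a over these same arrays. Lpar1 (-0.97) and Ptgfr (-2.20) have the same order, Ptgfr only barely on the knockout side, and the direct limma test gave adjusted p = 0.105 and 0.143. So does Tafa2, near Avpr1a on its chromosome (-0.60, adjusted p = 0.117). Dusp6 has the reverse order (1.10) and Dusp1 is higher in knockout (1.18); both had an adjusted p of 0.0464 by limma.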

How the results depend on the processing

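The number of receptor genes called was 0 in each comparison under every alternative run, Avpr1a being left out of those with knockout; limma's unadjusted counts stand above. With any 1 array left out Avpr1a ran from -3.48 to -2.85 (knockout) and from 1.16 to 1.45 (knockdown); where that leaves 1 array in a group, it is assumed to vary like the others. The replicate numbers are shared by the groups, but the deviations of same-numbered arrays correlated at only -0.074 to 0.199, so they are not taken to pair the clones. With a replicate block Avpr1a was 1.21 in knockdown (limma adjusted p = 0.317), and the Dusp1 and Dusp6 calls ended.

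Lpar1 (knockout against knockdown) passed only without knockout array 2, at -1.28, and Dusp1 in knockout passed with the stricter filter, quantile normalization, medians centred and array weights (1.09 to 1.16). Signs turned only where no call was made. In knockout against wild type Avpr1b became 0.05 with quantile normalization, 0.04 with medians centred and 0.03 with array weights, Oxtr 0.04 and 0.03 with quantile normalization and centring, and Bdkrb2 0.10 without both arrays numbered 2. In knockdown Ednrb became 0.02 with array weights and 0.07 with the replicate block, Bdkrb2 0.04 with that block, and Agtr2 0.59 without both arrays numbered 2. Between knockout and knockdown Bdkrb2 became 0.10 without those arrays and Ece2 -0.60 with its probe set of lowest mean. With 1 array left out, ranges that crossed 0 in knockout were -0.04 to 0.05 for Avpr1b, -0.06 to 0.11 for Ednrb and -0.46 to 0.10 for Bdkrb2. In knockdown they were -0.02 to 0.30 for Avpr1b, -0.09 to 0.07 for Ednrb, -0.06 to 0.29 for Agtr1a, -1.88 to 0.59 for Agtr2 and -0.08 to 0.04 for Bdkrb2. Between the deficient groups they were -0.31 to 0.02, -0.02 to 0.11, -1.96 to 0.52 and -0.42 to 0.14 for Avpr1b, Ednrb, Agtr2 and Bdkrb2. The stricter filter removed Avpr1b, Avpr2, Ednrb and Agtr1a, which gave no value there. Avpr1b, Avpr2, Ednrb and Agtr1a lay below the array medians on all arrays, where background limits any difference.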
